A study of Mus musculus with 8 samples.

Results

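The baseline transcriptome of wild-type mouse blastocysts at embryonic day 4.5 was described from 3 of the 8 libraries of the series, those titled WT (replicates 1, 2 and 3). The libraries were chosen by their titles, and no expression value entered the choice. The series concerns Isca2, which encodes a mitochondrial protein that helps build iron-sulfur clusters. The other libraries, from embryos that lack Isca2 or carry its G77 form, were not analysed here. Per the labels, the wild-type embryos came from Isca2+/- females, superovulated with pregnant mare serum gonadotropin and human chorionic gonadotropin, and Isca2+/- males, so both parents carried 1 altered allele. The embryos were cultured in potassium-supplemented optimised medium, and whole blastocysts gave full-length cDNA amplified with a kit made for single cells. Strain, age of the mothers, number of embryos in a library, sex, litter and preparation batch: none of these is given in the labels. Nothing in the labels says that the 3 libraries came from separate litters, so the spread between them may be partly technical.

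At this stage the blastocyst holds 3 cell types and is ready to implant. The trophectoderm is a transporting epithelium that pumps fluid into the cavity, is built on keratins 8 and 18 and forms the placenta. The epiblast is the pluripotent source of the fetus, marked by Nanog, Oct4 (Pou5f1) and Sox2, and the primitive endoderm, marked by Gata6, Gata4, Sox17 and Pdgfra, forms the yolk sac. RNA was taken from whole embryos, so fewer cells of a type and less RNA per cell cannot be told apart.

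All levels below are in TPM, a unit of transcript abundance that is scaled by transcript length and can therefore be compared between genes. Total expected counts were 17320268, 10790670 and 23842619 in replicates 1, 2 and 3. In 1 library, 3 counts correspond to 0.126 to 0.278 CPM, a scale on which every library has the same total. At least 1 TPM was reached by 10080, 9305 and 9463 genes, and 7778 genes reached it in all 3 libraries, of which 6942 (89.3%) are annotated as protein-coding. Replicate 1 stood apart from the others. Pearson's r of log2(TPM + 1) across 5359 protein-coding genes with a mean of at least 5 TPM was 0.928 between replicates 1 and 2, 0.928 between 1 and 3, and 0.963 between 2 and 3. These are correlations across genes, which are not independent replicates. Mean fragment length, read from the deposited lengths, was 275 bases in replicate 1, 248 in replicate 2 and 243 in replicate 3.

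The sequences shown here are the promoter stretches of 2 neighbouring gene pairs whose members moved together between the libraries, the trophectoderm keratins Krt8 and Krt18 on chromosome 15 and the metallothioneins Mt1 and Mt2 on chromosome 8. They were taken from RefSeq (GRCm38.p6), run 5′ to 3′ on the gene's own strand, and stop before the first annotated base of the gene. Each stretch lies upstream of both the RefSeq and the GENCODE start. In the keratin pair, capitals mark GCCNNNGGC, the letters bound by AP-2 factors such as Tfap2c, on either strand. In the metallothionein pair, capitals mark TGCNCNC, the core of the metal response element, on either strand.
Krt8, 110 bases, chr15:102004483-102004592, minus strand: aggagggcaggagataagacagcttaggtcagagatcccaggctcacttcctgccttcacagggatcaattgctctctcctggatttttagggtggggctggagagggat
Krt18, 214 bases, chr15:102027966-102028179, plus strand: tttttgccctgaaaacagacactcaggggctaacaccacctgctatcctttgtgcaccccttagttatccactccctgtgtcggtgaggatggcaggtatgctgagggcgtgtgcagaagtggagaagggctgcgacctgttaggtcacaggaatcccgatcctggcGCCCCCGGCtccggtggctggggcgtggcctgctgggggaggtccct
Mt1, 243 bases, chr8:94178839-94179081, plus strand: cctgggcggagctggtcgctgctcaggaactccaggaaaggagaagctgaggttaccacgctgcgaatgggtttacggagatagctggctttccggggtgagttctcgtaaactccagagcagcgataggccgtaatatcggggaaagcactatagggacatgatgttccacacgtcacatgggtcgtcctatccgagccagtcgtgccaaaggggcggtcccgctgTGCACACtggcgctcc
Mt2, 250 bases, chr8:94172368-94172617, plus strand: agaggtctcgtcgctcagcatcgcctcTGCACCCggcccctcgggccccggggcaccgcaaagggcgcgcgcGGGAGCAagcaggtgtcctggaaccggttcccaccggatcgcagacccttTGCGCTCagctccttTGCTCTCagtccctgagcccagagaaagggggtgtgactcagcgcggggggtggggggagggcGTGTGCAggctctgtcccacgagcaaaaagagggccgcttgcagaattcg

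The Krt18 stretch held 1 match to the AP-2 letters and the shorter Krt8 stretch held 0. The metal response core matched 1 time upstream of Mt1 and 5 times upstream of Mt2. These counts cover only the stretches shown and depend on where the annotated starts lie. Bases after the annotated starts were not searched. Over the 250 bases before each of the 32851 RefSeq starts, 13.7% of promoters held the AP-2 letters and 44.4% held the metal response core, so these letters alone are common. The stretches shown for Krt8, Krt18 and Mt1 are shorter than those windows. A match describes letters and is not a binding site.

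The most abundant messenger RNA was that of Fabp3, a small protein that carries fatty acids through the cytosol (chromosome 4, 130308595 to 130315463). Its level was 27446, 25768 and 20979 TPM in replicates 1, 2 and 3, a mean of 24731 ± 3356 (SD, n = 3), and the highest library exceeded the lowest by a factor of 1.31. The next was Dppa5a, an RNA-binding protein of pluripotent cells (chromosome 9, 78367052 to 78368177), at 18911, 22339 and 27003 TPM. Their order was not the same in every library, since Fabp3 led in replicates 1 and 2 and Dppa5a led in replicate 3. The difference between their means was within the spread of the libraries.

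Several of the 25 most abundant genes encode germline and pluripotency-associated proteins. Dppa1, known from early embryos, stood at 4775, 6998 and 6361 TPM, and Dppa3, a maternal factor that guards DNA methylation after fertilisation, at 6707, 6902 and 3428 TPM. Crxos, a homeobox gene of the early embryo, reached 5511, 8373 and 10428 TPM. Dppa3 was lowest in replicate 3 and Crxos was lowest in replicate 1, so the 2 genes did not share an order over the libraries.

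Others serve the cytoskeleton, protein turnover and metal binding. Tmsb10, an actin monomer-binding thymosin, was even at 9029, 7797 and 8087 TPM. Its X-linked relative Tmsb4x was not, at 2695 TPM in replicate 1, 6637 in replicate 2 and 9924 in replicate 3. Cstb, an inhibitor of cathepsins, stood at 8190 ± 411 TPM and Hsp90aa1, a cytosolic chaperone, at 6887 ± 593 (SD, n = 3). Lgals1, a galactoside-binding lectin, stood at 6409 ± 1692 TPM, Gabarapl2, an autophagosome protein, at 5154 ± 236, and Ubb, which encodes polyubiquitin, at 5074 ± 632. Ppia, the abundant cytosolic prolyl isomerase cyclophilin A, was among the most even of all genes, with 5004, 5038 and 5105 TPM. BC051665, a cathepsin-like gene, was at 2492, 4192 and 7155 TPM, lowest in replicate 1.

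The metallothioneins, small cysteine-rich proteins that bind zinc and copper, moved as a pair. Mt1 was at 6215, 12020 and 6347 TPM and Mt2 at 2121, 3952 and 2544 TPM. Replicate 2 was the highest for both, by a factor of 1.93 for Mt1 and 1.86 for Mt2 over the lowest library. The sequences before their starts are those printed above, where the metal response core occurs in both. The same core occurred in 59.3% of the 91 promoters of the most abundant nuclear protein-coding genes. Its part in these levels was not tested.

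**Figure D1:**
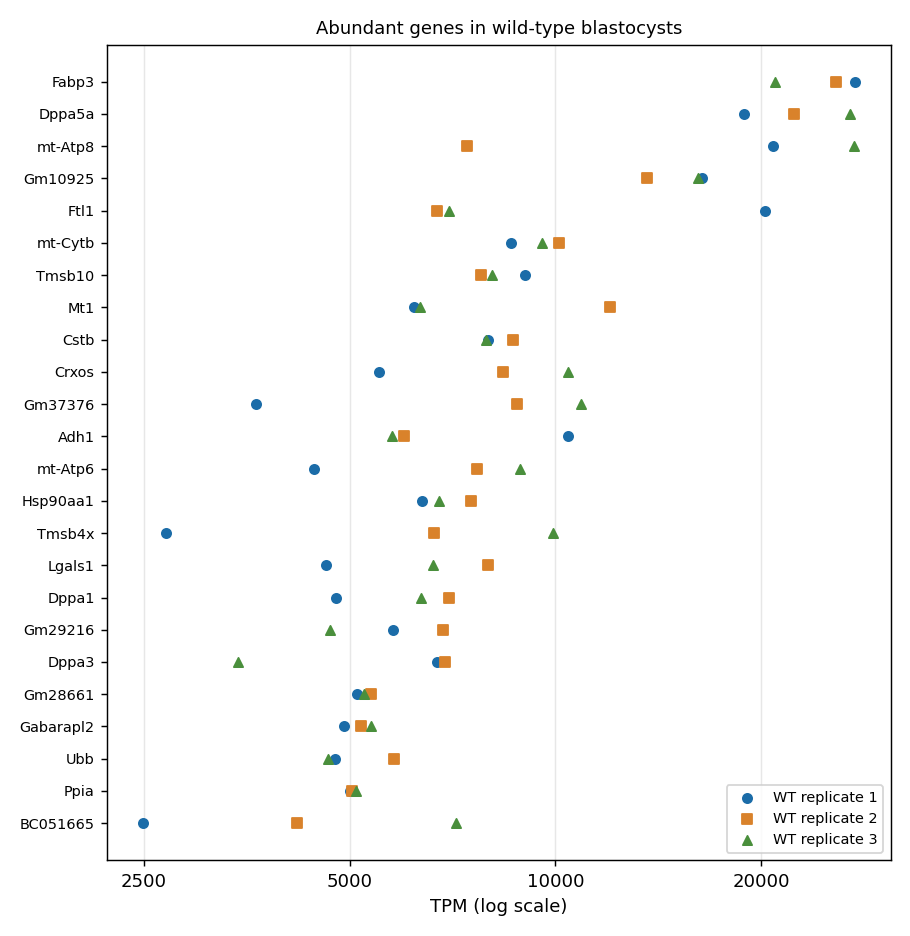
TPM (log axis) of 24 of the 25 genes with the highest mean, 1 point per wild-type library. Fabp3 and Dppa5a head the plot between 18911 and 27446 TPM, the points of Ppia overlap, and those of mt-Atp8, Ftl1 and Tmsb4x are the most widely spaced of the named proteins.

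Entries from the mitochondrial genome are less certain. The genome's genes made up 5.65%, 4.67% and 6.90% of TPM in replicates 1, 2 and 3. Of the top 25, mt-Atp8 encodes a 204-base transcript whose effective length fell to between 8.86 and 16.1 bases, so its 20853, 7436 and 27346 TPM rest on a small divisor. The unprocessed pseudogenes Gm10925, Gm29216 and Gm28661 lie side by side on chromosome 1, between 24613974 and 24616197, and belong to a known nuclear copy of mitochondrial DNA. Gm10925 was listed at 16390, 13621 and 16186 TPM. Reads of these copies and of the mitochondrial genes cannot be told apart with confidence, and their levels are uncertain.

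The transcriptome was concentrated in few genes. The 100 most abundant genes held 42.6% ± 1.5 of TPM (SD, n = 3), and 164, 144 and 144 genes made up 50% of it in replicates 1, 2 and 3. The 172 protein-coding genes with a mean of at least 1000 TPM held 48.3%. The 1619 protein-coding genes detected in all 3 libraries with a mean between 1 and 5 TPM held 0.513%. By annotated type, protein-coding genes held 92.3% ± 0.73 of TPM, unprocessed pseudogenes 3.45% ± 0.036, processed pseudogenes 1.14% ± 0.14 and long intergenic non-coding RNAs 0.862% ± 0.29.

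Trophectoderm genes were checked first, since this epithelium makes up the outer wall of the blastocyst. Krt18, which encodes the type I keratin of simple epithelia, was at 5782, 2939 and 3406 TPM. Krt8, its type II partner, was at 1682, 940 and 934 TPM. Replicate 1 was the highest for both, by 1.97-fold and 1.80-fold over the lowest library, while replicates 2 and 3 lay close together. Of 5359 protein-coding genes with a mean of at least 5 TPM, 50.3% were highest in replicate 1. All 19 genes of the trophectoderm epithelium list had at least 1 TPM in some library, and the list summed to 37910, 32827 and 29024 TPM, most of it Fabp3. Tspan8, a tetraspanin of the cell surface, ran the other way from the keratins with 1493, 1943 and 2427 TPM, and Krt7 stayed between 11.4 and 17.6 TPM.

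Regulators of the trophectoderm were present at far lower levels. Gata3, a zinc finger factor that drives trophoblast genes, was at 46.3, 29.8 and 18.6 TPM. Id2, an inhibitor of helix-loop-helix factors, was the exception at 3382, 2430 and 2370 TPM. Elf3, an epithelial ETS factor, stood at 190, 75.7 and 106 TPM, and Klf5, a factor of the blastocyst lineages, at 74.7, 27.9 and 26.9 TPM. Below them came Tfap2c with 26.2, 13.4 and 7.53, Gata2 with 13.2, 10.7 and 12.8, and Eomes with 11.5, 5.15 and 8.61 TPM. Cdx2, the caudal-type factor that first marks the lineage, was only at 6.10, 1.78 and 2.01 TPM. Dlx3, a factor of the later placenta, had 0 counts in each library.

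All 9 regulators with a mean of at least 5 TPM were highest in replicate 1. Against that, 50.3% of the 5359 protein-coding genes at this level were highest in replicate 1 on the TPM scale. The count became 8 of 9 when TPM were divided by median-of-ratios factors (1.10, 0.949 and 0.975), a scale on which 39.4% of all genes were highest there, and Gata2 was the exception. It was also 8 of 9 on counts with such factors, where the share of all genes was 32.2%.

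The trophectoderm makes its cavity by pumping sodium. Of the pump and water channel list, Atp1b1, the pump's beta subunit, was at 103, 28.6 and 64.2 TPM. The second beta subunit, Atp1b3, was at 78.7, 46.5 and 59.0 TPM. The aquaporins Aqp9 and Aqp3 were at 71.7, 61.0 and 59.4 and at 98.0, 29.7 and 44.7 TPM. All 16 tight junction genes reached 1 TPM in all 3 libraries, led by the claudins Cldn7 (381, 308 and 300 TPM) and Cldn4 (310, 154 and 184 TPM). F11r, a junctional adhesion molecule, and Prkcz, a polarity kinase, followed with means of 102 and 73.8 TPM.

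The placental list divided sharply. Plac1, an X-linked trophoblast gene, was at 776, 1108 and 1348 TPM, and Slc38a4, an amino acid transporter of the placenta, at 216, 202 and 196 TPM. In contrast, Gcm1, the regulator of syncytiotrophoblast, and the giant cell hormones Prl3d1 and Prl2c2 had 0 counts in each library. Hand1, a giant cell regulator, stayed at or below 0.65 TPM, and 10 of the 16 members were below 1 TPM in all 3 libraries.

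Epiblast genes showed a wide contrast between members. Nanog, the homeobox factor of pluripotent cells, was at 142, 103 and 86.1 TPM, highest in replicate 1. Zfp42, known as Rex1, was at 47.1, 72.4 and 65.6 TPM, and Dppa2, a chromatin factor, was even at 164, 154 and 169 TPM. Pou5f1, which encodes Oct4, was by contrast at 6.11, 4.83 and 2.89 TPM. Sox2 and Esrrb, which act beside Nanog and Oct4, had 0 counts in all 3 libraries. For Sox2 that allows up to 0.0823, 0.119 and 0.0551 TPM in replicates 1, 2 and 3, at 3 counts each. Klf4 stayed at or below 0.17 TPM, and Fgf4, the signal from epiblast to primitive endoderm, was at 0, 0 and 0.25 TPM. Nodal, Lefty2 and Bmp4, secreted factors of the TGF-beta family, had 0 counts. In all, 12 of the 25 epiblast members were detected in every library and 8 were below 1 TPM in each. Nanog exceeded Pou5f1 by 23.3, 21.3 and 29.8-fold in replicates 1, 2 and 3, and the defining genes of the lineage did not stand together in these libraries.

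Primitive endoderm genes were mostly near 0. Dab2, an endocytic adaptor that the trophectoderm also makes, was at 516, 438 and 368 TPM. Apoa1, an apolipoprotein of yolk sac and liver, was at 138, 81.7 and 164 TPM. Gata6, the regulator that starts the lineage, was at 7.86, 5.32 and 5.10 TPM, and Fgfr2, a receptor for FGF4 that the trophectoderm shares, was at 16.9, 10.6 and 14.4 TPM. Gata4, Sox17, Sox7 and Foxa2, which act after Gata6, had 0 counts in all 3 libraries, and Pdgfra, the surface marker of the lineage, had 1 count in replicate 1 alone. Of the 24 members, 14 were below 1 TPM in every library. On these measures the label blastocyst was met by trophectoderm genes and by some epiblast genes, while the defining genes of mature primitive endoderm were not detected at this depth. For Gata4, 3 counts would have been 0.0929, 0.134 and 0.0620 TPM.

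**Figure D2:**
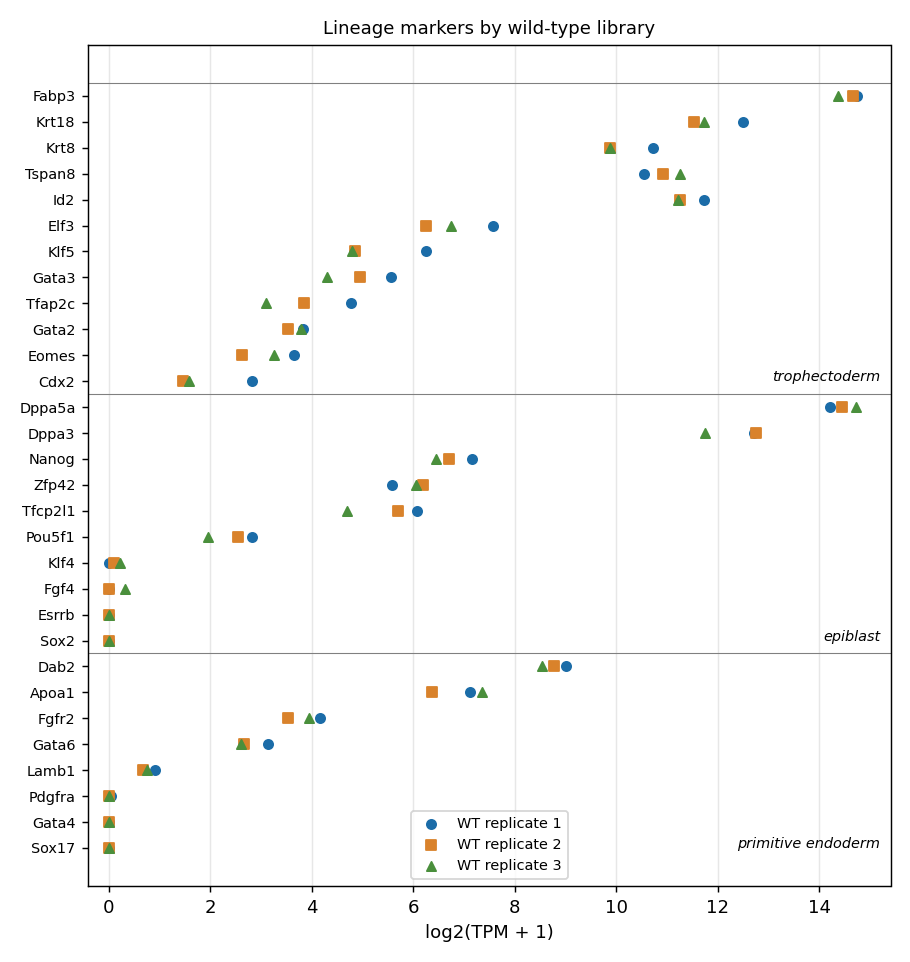
Level of lineage genes as log2(TPM + 1), 1 point per wild-type library, grouped by trophectoderm, epiblast and primitive endoderm. Fabp3 and Dppa5a lie far right, Nanog and Gata3 in the middle, and Sox2, Esrrb, Gata4 and Sox17 at 0 in all 3 libraries.

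Signalling genes of the same lineages were sparse. The highest of 23 in the FGF, LIF, BMP and Nodal list was Acvr2b, an activin receptor, at 26.4, 25.6 and 43.4 TPM, followed by Fgfr2. Bmpr1a, a BMP receptor, had a mean of 5.88 TPM and Stat3, the effector of LIF, 5.49 TPM. In all 3 libraries 13 members were below 1 TPM. They include the receptors Lifr and Il6st, and the targets Id1, Socs3 and Etv4 had 0 counts.

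Markers of other cells that could accompany an embryo were low. Of 24 markers of blood, leukocytes, stroma and ovarian cells, 20 were below 1 TPM in every library. Col1a1, Col3a1 and Dcn of stroma and Amh, Inha and Has2 of follicle cells had 0 counts throughout, and Ptprc, the common leukocyte antigen, was at 0, 0 and 0.01 TPM. The list summed to 109, 38.7 and 25.5 TPM. Nearly all of that was Cd68, a lysosomal glycoprotein known from macrophages, at 104, 37.4 and 21.8 TPM, highest in replicate 1. Among oocyte genes, Zp3, Gdf9 and Bmp15 stayed at or below 1.24 TPM. Khdc3 and Ooep, members of the maternal complex beneath the oocyte surface, remained at 314, 294 and 281 and at 16.8, 29.4 and 29.9 TPM. Of the genes linked to the 2-cell stage, Calcoco2, an autophagy receptor (1039, 1354 and 1593 TPM), and Pramel6 and Pramel7, which are also known from the inner cell mass, were abundant. All 4 Zscan4 genes on the list had 0 counts.

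Respiratory chain genes were the most abundant metabolic group. These complexes of the inner mitochondrial membrane pass electrons to oxygen and drive ATP synthase. The 75 nuclear-encoded subunits of complexes I to IV and ATP synthase were all detected in all 3 libraries and summed to 72369, 89396 and 83060 TPM, or 8.16% of the total. Complex I contributed 26459 ± 2925 TPM (SD, n = 3) from 37 genes, complex IV 21977 ± 3022 from 10, ATP synthase 20578 ± 1584 from 15 and complex III 11353 ± 1029 from 9. Complex II, the only one that is also an enzyme of the citric acid cycle, contributed 1242 ± 117 from 4. The best represented subunits were Atp5g1, part of the rotating ring, at 2906, 5268 and 4159 TPM, Cox5a of complex IV at 3802, 4318 and 4116, and Uqcr10 of complex III at 3358, 4030 and 3456. Replicate 1 gave the lowest sum for each of the 5 complexes, but not every subunit followed the sum. It was the highest library for 5 of 37 genes of complex I, 3 of 4 of complex II and 4 of 9 of complex III. For complex IV this held for 0 of 10 and for ATP synthase for 5 of 15, against 50.3% of the 5359 genes tested.

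Glycolytic genes were far lower. The 20 members of the glycolysis list, transporters included, summed to 2094, 1617 and 1458 TPM. The summed level of the nuclear respiratory genes was 48.9 ± 12.5 times that of glycolysis (34.6, 55.3 and 57.0 in replicates 1, 2 and 3), over lists of unequal size. Median levels per member were 804 TPM for the respiratory genes and 7.36 TPM for glycolysis. All 75 respiratory genes were detected in all 3 libraries. Of the 20 glycolysis members 12 were, and 4 were below 1 TPM in each. The glycolysis median thus includes members that were hardly expressed, and the medians are of unlike lists. Gapdh was the highest glycolytic gene at 883, 685 and 565 TPM, followed by Aldoa at 353, 302 and 302 and Tpi1 at 265, 327 and 283. The later and branching steps were low. Pkm, which makes pyruvate, was at 20.3, 1.64 and 4.49 TPM, and Ldha, which turns pyruvate into lactate, at 3.34, 1.77 and 0.57. Hk1 had 0 counts, while Hk2, the other hexokinase, was at 106, 39.8 and 39.5 TPM. Slc2a3, the high-affinity glucose transporter GLUT3, was at 80.4, 37.9 and 39.9 TPM. Of the 12 members with a mean of at least 5 TPM, 11 were highest in replicate 1, against 50.3% of all genes. On counts scaled by median-of-ratios factors the count was 9, against 32.2% of all genes.

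Pyruvate entry and the citric acid cycle were almost complete. In this list 22 of 23 genes were detected in all 3 libraries, and the sum was 4901, 4857 and 4558 TPM. Mdh2, the mitochondrial malate dehydrogenase, was even at 917, 904 and 861 TPM, as was the pyruvate carrier subunit Mpc1 at 437, 435 and 455. Suclg1, of succinyl-CoA synthesis, was at 566, 764 and 613 and Idh3g, an X-linked isocitrate dehydrogenase subunit, at 632, 454 and 421. The gene at 0 was Pcx, pyruvate carboxylase, which refills the cycle. The level of transcripts does not measure the flux through any of these pathways.

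Lipid genes were read by list. The fatty acid oxidation list summed to 3692 ± 404 TPM (SD, n = 3). It was led by Etfb at 1518, 1947 and 1475 TPM and Etfa at 570, 515 and 666, the subunits of the flavoprotein that carries electrons from oxidation to the respiratory chain. Acadm, the medium-chain dehydrogenase, was at 315, 680 and 504 TPM, and Cpt1a, which brings long chains into mitochondria, at 8.50, 2.08 and 1.82. Fasn and Acaca, the enzymes of fatty acid synthesis, stayed at or below 0.55 TPM in every library. Plin2, a coat protein of lipid droplets, was at 283, 192 and 216 TPM. The 21 genes of cholesterol synthesis together reached 356 ± 42.6 TPM, with Ebp as the highest at 116, 87.5 and 86.5.

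Adh1, an alcohol dehydrogenase that also oxidises retinol, stood apart in its family (chromosome 3, 138260991 to 138290698). Its level was 10438 TPM in replicate 1, 5995 in replicate 2 and 5759 in replicate 3, so replicate 1 exceeded the others, which lay close together. Adh5 was at 91.8, 71.5 and 83.3 TPM, Adh7 at 2.85, 0 and 0, and Adh4 had 0 counts. Of the 19 genes of alcohol and retinoid metabolism 12 were below 1 TPM in every library. Among them the retinaldehyde dehydrogenases Aldh1a1, Aldh1a2 and Aldh1a3 and the retinoid carriers Rbp4 and Crabp1 did not exceed 0.98 TPM.

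Iron genes were dominated by ferritin, the shell that stores iron. The light chain gene Ftl1 was at 20255, 6707 and 6980 TPM, 3.02-fold from lowest to highest on the TPM + 1 scale, with replicate 1 far above the others. The heavy chain gene Fth1 was even at 1591, 1278 and 1204 TPM. Ftl1 has near-identical processed copies, so its level is uncertain. Slc40a1, the iron exporter ferroportin, was at 14.3, 24.7 and 40.1 TPM and Tfrc, the transferrin receptor, at 2.74, 1.84 and 4.14. Isca2 itself, on chromosome 12 (84773251 to 84775088), was at 138, 222 and 196 TPM.

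Genes of redox defence and of methylation were also read. Gpx1, a glutathione peroxidase, was at 2706, 2683 and 2234 TPM, Sod2, the mitochondrial superoxide dismutase, at 1512, 1917 and 1631, and Gpx4, which reduces lipid peroxides, at 1112, 1400 and 1302. Among 15 genes of DNA methylation only Dppa3 was abundant. Dnmt3l, a cofactor of new methylation, was at 20.4, 42.9 and 19.8 TPM, and the maintenance methyltransferase Dnmt1 at 2.47, 0.93 and 1.23. Of the enzymes that oxidise methylcytosine, Tet2 was at 6.32, 7.92 and 9.58 TPM, Tet1 at 5.03, 0.40 and 1.63, and Tet3 at 0.91, 0.05 and 0.17. Tet2 was thus the highest of the 3 in every library, and Tet1 and Tet3 were highest in replicate 1.

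Protein synthesis and breakdown took a large share. The 82 cytosolic ribosomal protein genes, which include the paralogs Rps27l, Rpl10l and Rpl3l, summed to 98858, 104860 and 90506 TPM, or 9.81% of the total. Many have processed copies elsewhere in the genome, and reads may be split between them. The 78 mitochondrial ribosomal protein genes were all detected and gave 14979 ± 955 TPM, and the 31 proteasome genes 12437 ± 535 (SD, n = 3). Of the 22 genes of G2 and M phase 21 were detected in all 3 libraries, with a median member level of 17.8 TPM. For S phase this held for 19 of 20, with a median of 15.8 TPM. The G2 and M genes named next lay far above the median of their list. Birc5, an inhibitor of apoptosis that acts at the centromere, was at 554, 881 and 588 TPM, Cks2, a partner of cyclin-dependent kinases, at 459, 632 and 968, and Ccnb1, cyclin B1, at 265, 482 and 392.

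**Figure D3:**
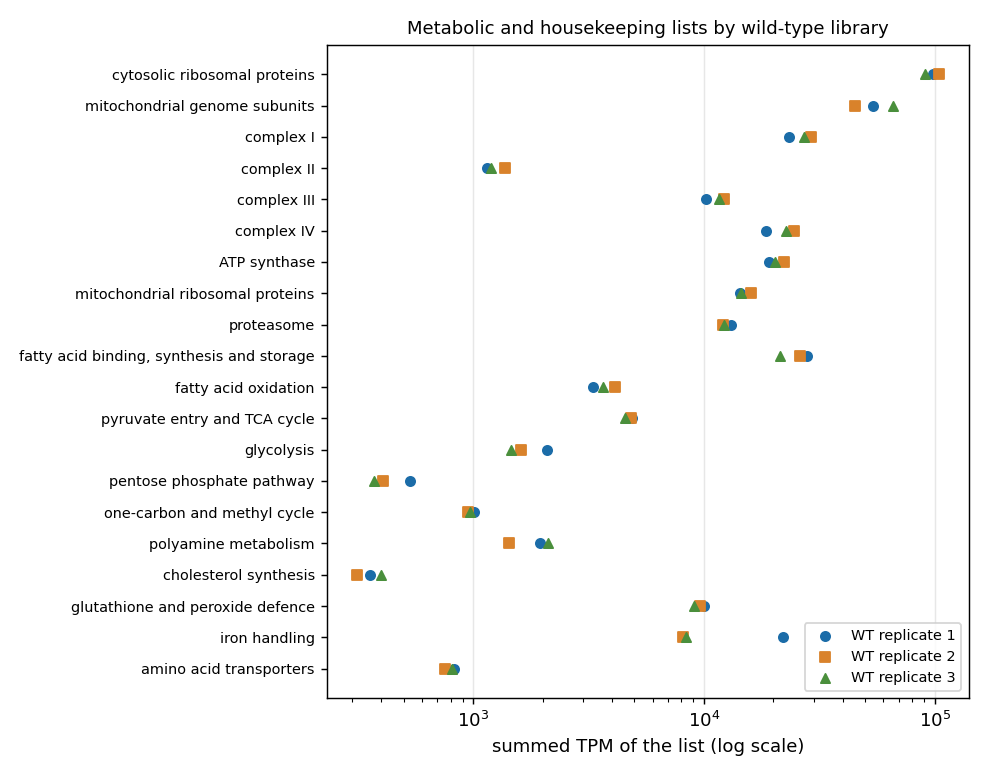
Summed TPM (log axis) of 20 metabolic and housekeeping gene lists, 1 point per wild-type library. Cytosolic ribosomal proteins lie near 98075 TPM and complexes I and IV and ATP synthase above 18638, while glycolysis lies near 1723, and iron handling shows replicate 1 at 22071 against 8114 and 8360 in the others.

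Variation between the wild-type libraries was then described. A gene was said to vary when its highest TPM + 1 was at least 4 times its lowest over the 3 libraries, among protein-coding genes with a mean of at least 5 TPM. By that rule 274 of 5359 genes varied (5.11%). The median gene had an SD of log2(TPM + 1) of 0.37 over the libraries, against 0.05 for the counting error of its expected counts. A share of 40.5% (2173 genes) stayed under 1.5-fold and 30.6% (1642 genes) reached 2-fold. Varying genes became fewer with level. Among genes detected in all 3 libraries they were 7.28% at 5 to 20 TPM, 3.44% at 20 to 100 TPM, 1.02% at 100 to 1000 TPM and 0 of the 172 genes at 1000 TPM or more.

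Most of the variation set replicate 1 against the others. Replicate 1 was the highest library for 182 of the 274 varying genes, replicate 3 for 57 and replicate 2 for 35. On the same TPM scale replicate 1 was also highest for 50.3% of all 5359 genes tested, so part of this count is shared by genes in general. On counts with median-of-ratios factors that share was 32.2%. With replicate 1 left out, 54 of 5092 genes varied. Gene length moved with this difference. In the shortest of 5 equal classes of genes by length the median deviation of replicate 1 from a gene's own mean was -0.05 (log2), and in the longest it was 0.33. The part of fragment length and RNA quality in the varying genes was not tested.

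The 8 genes with the smallest spread at 100 TPM or more were then read. Eif3m, a subunit of a translation initiation factor, was at 286, 287 and 284 TPM, Rpl39, a ribosomal protein, at 379, 376 and 380, and Capg, which caps actin filaments, at 495, 489 and 490. Magoh, of the exon junction complex, Znhit3, a zinc finger protein, Atp5g3, of ATP synthase, Ppia and Rabggtb, of Rab prenylation, completed the 8. The largest ratio of the 8, that of Rabggtb, was 1.02 between its highest and lowest library.

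Among varying genes with at least 20 TPM, the largest ratio was that of Eif2s3y, a Y-linked initiation factor subunit, with 0.19, 65.9 and 119 TPM. Spp1, the secreted phosphoprotein osteopontin, followed with 29.97, 1.79 and 161 TPM, a ratio of 57.9 on the TPM + 1 scale. Il6, the cytokine interleukin 6, was at 6.49, 36.3 and 100.2 TPM, Herpud1, which acts in degradation of proteins from the endoplasmic reticulum, at 6.64, 74.8 and 116, and Dmkn, a secreted epithelial protein, at 91.9, 407 and 869. For these 3 genes replicate 1 was lowest and replicate 3 highest. The opposite held for Rhox5, an X-linked homeobox gene, at 159, 15.9 and 8.06 TPM, and for Zfp969, a zinc finger gene, at 222, 75.6 and 6.77. The ratio of Zfp969 is uncertain, since its effective length was 39.9, 48.2 and 218 bases in replicates 1, 2 and 3. In CPM, which is not divided by length, it differed 5.60-fold. Xlr3c on the X chromosome, at 114, 7.63 and 18.3 TPM, Plekhb2, a membrane-binding protein, at 62.3, 10.01 and 3.45, and Lrrfip2, at 66.3, 4.36 and 5.86, were highest in replicate 1 as well. Rpl10l, a ribosomal protein paralog, was at 104, 10.6 and 38.8 TPM. Tpm2, a tropomyosin, alone of the 12 was highest in replicate 2, at 4.62, 57.2 and 12.4 TPM.

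By function, the list of the ATF4 stress response held the largest share of varying genes among the 36 lists with at least 5 members at 5 TPM. ATF4 is the transcription factor of the integrated stress response and raises genes of amino acid synthesis. In this list 3 of 8 varied, against 5.11% of all genes, and the median SD of log2(TPM + 1) was 0.84. Nupr1, a stress-induced chromatin protein, was at 44.9, 43.2 and 276 TPM. Asns, which makes asparagine, was at 35.0, 127 and 173 TPM, and Phgdh, the first enzyme of serine synthesis, at 44.3, 9.37 and 8.52. Phgdh thus ran against Asns. Ddit3, the stress factor CHOP, was at 130, 214 and 262 TPM and Atf4 itself at 21.5, 46.6 and 58.1, both lowest in replicate 1 and below the rule's ratio. Of the 8 members 6 were highest in replicate 3 on each of the 3 scales, on which 24.8%, 28.5% and 32.6% of all genes were highest there. Only 1 of the 8 varied between replicates 2 and 3.

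The other lists with a large share rest on few genes. For interferon-induced and antigen presentation genes it was 2 of 6: Ifitm2, a membrane protein that restricts viruses (177, 41.7 and 96.1 TPM), and Bst2, known as tetherin (1.80, 17 and 12.7 TPM), which ran in opposite directions. Among amino acid transporters 2 of 7 varied. These were Slc6a14 at 26.6, 39.0 and 109 TPM and Slc7a3 at 65.9, 7 and 26.9 TPM, both X-linked. Of the immediate early genes, which respond to stimuli within minutes, 1 of 5 varied, Jund at 22.6, 2.73 and 9.23 TPM. All 5 were highest in replicate 1, against 50.3% of all genes, and 4 of them on either other scale, against 39.4% and 32.2%. Fos, Egr1 and Fosb, the classic members, stayed at or below 0.13 TPM. In S phase 3 of 15 varied. They were Mcm4 at 40.7, 3.73 and 10.2 TPM, Mcm3 at 25.6, 6.80 and 4.93, both of the replicative helicase, and Ccne2, cyclin E2, at 18.5, 2.61 and 6.54. Without replicate 1 none of these 4 lists held a varying gene.

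Lineage lists differed in their spread. No trophectoderm regulator passed the 4-fold rule, but their median SD of log2(TPM + 1) was 0.63. Among the 36 lists only the ATF4 stress response (0.84) and immediate early genes (0.82) had a larger one. The lists of pump and water channels and of the epithelium had 0.62 and 0.50. Epiblast genes had 0.34 and primitive endoderm genes 0.32, below the 0.37 of all genes, from 8 and 7 members. Set beside genes of the same level, the order was different. The median spread relative to level was 1.36 for epiblast genes and 1.003 for primitive endoderm genes, so neither was below genes of its level. For trophectoderm regulators it was 1.67. In the epithelium list Krt19 (16, 3.15 and 29.3 TPM) and Ly6e (16.4, 0.53 and 8.24 TPM) varied, and both did so between replicates 2 and 3. Within the TPM range of respiratory genes the spread was small, with 0 of 75 nuclear subunits varying and median SDs of 0.19 to 0.28 over the 5 complexes. The proteasome had the smallest, 0.16, and cytosolic ribosomal proteins had 0.18. Spread was smaller at higher levels for detected genes in general, from 0.49 at 5 to 20 TPM to 0.21 at 1000 TPM or more. Glycolysis had 0.58, with Pkm and Slc16a1, a lactate and pyruvate transporter, as varying genes.

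**Figure D4:**
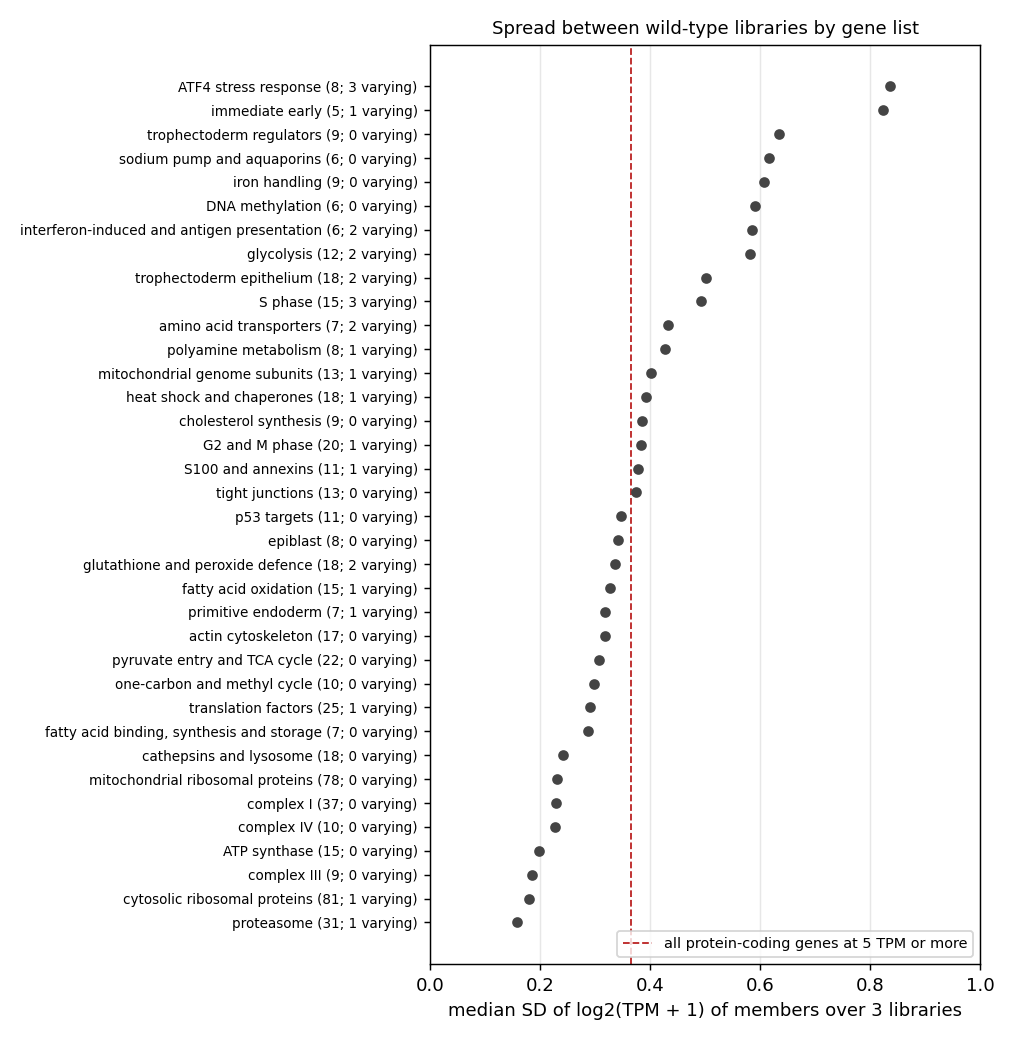
Median SD of log2(TPM + 1) over the 3 wild-type libraries for each of 36 gene lists, with the number of members at 5 TPM or more and the number varying beside the name. The dashed line is the median of all 5359 genes, 0.37. ATF4 stress response (0.84) and immediate early genes (0.82) lie far right of it and the proteasome (0.16) left.

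Sex-linked genes separated replicate 1 from the others. The 4 Y-linked genes summed to 0.19, 80.9 and 135 TPM. Ddx3y, a Y-linked helicase, was at 0, 9.56 and 13.1 TPM. Xist, the RNA that coats the inactive X chromosome, was at 35.3, 0 and 0.53 TPM, and its antisense partner Tsix at 32.4, 0.85 and 0.43 TPM. Reads of Xist and Tsix cannot be told apart where strand is not known. Replicate 1 was thus the only library with Y-linked RNA near 0 and with more than 1 TPM of Xist.

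Differences between the libraries were also uneven over the chromosomes, a pattern looked for after the values were seen. Among protein-coding genes with a mean of at least 20 TPM, replicate 1 was compared with the mean of replicates 2 and 3 on the log2(TPM + 1) scale. The median difference was 0.51 over 188 genes of chromosome 1, 0.61 over 109 genes of chromosome 16 and 0.36 over 118 X-linked genes. These correspond to 1.43-fold, 1.53-fold and 1.28-fold. Over the other 17 autosomes the medians lay between -0.05 and 0.15, the highest on chromosome 9. Replicate 1 was above both other libraries for 76.6% of the genes on chromosome 1 and 78.9% on chromosome 16, against 33.6% to 53.8% on the other autosomes. The median was above 0 in each of 4 consecutive groups of genes along both chromosomes, from 0.32 to 0.59 on chromosome 1 and from 0.25 to 0.71 on chromosome 16.

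On log2(CPM + 1), scaled by library totals alone, the medians were 0.45, 0.52 and 0.24 for chromosomes 1, 16 and X. Over the 17 other autosomes they ran from -0.17 on chromosome 7 to 0.01 on chromosome 9. Between replicates 2 and 3, on log2(TPM + 1), the medians of the 17 other autosomes ran from -0.24 to 0.13. Those of chromosomes 1 and 16 were -0.01 and -0.08. Chromosomes 1 and 16 were singled out by these same values, so the shares that follow are not an independent result. Chromosomes 1, 16, X and Y held 79 varying genes of 701 (11.3%), 65 of them highest in replicate 1. The rest of the genome held 195 of 4658 (4.19%), 117 of them highest in replicate 1. Of all 5359 genes, 50.3% were highest there. In the S phase list, Mcm3 lies on chromosome 1 and Mcm4 on chromosome 16. DNA copy number was not measured in these libraries, and its part in the result was not tested.

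**Figure D5:**
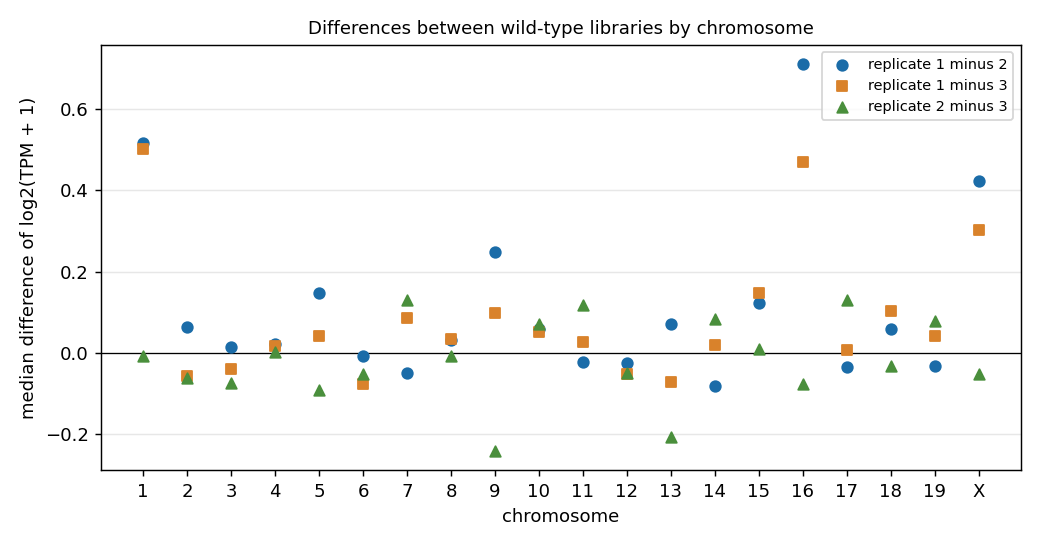
Median difference of log2(TPM + 1) between pairs of wild-type libraries for protein-coding genes with a mean of at least 20 TPM, by chromosome. Replicate 1 lies above both others by 0.47 to 0.71 on chromosomes 1 and 16 and by 0.30 to 0.42 on X, and replicates 2 and 3 lie within 0.24 of each other on every chromosome shown.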

How the data were processed

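RNA-seq libraries of 3 wild-type day 4.5 blastocyst samples were read, 1 table per library. Per the file headers, the authors deposited RSEM gene tables with expected (estimated) counts, TPM, transcript length and effective length in bases. TPM, scaled by the authors to a fixed total within each library, was the main unit, and the deposited expected counts, used unrounded, gave depth and counting error. The tools listed in the submitters' processing notes are STAR 2.6.1c, RSEM 1.3.1, Trim Galore 0.4.5 and DESeq2 1.42.1, with genome build GRCm38 (mm10). Strandedness, filters and the annotation release: not given in the sources used here. Floors of 3 counts cover counting error only, since reads were amplified without molecular identifiers.

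Gene symbols, types and coordinates (1-based) came from a GENCODE annotation of GRCm38, which matched 55230 of 55471 identifiers. A symbol with several identifiers took the one with the highest mean TPM. Fragment length is the median over genes of deposited length minus effective length. Values were log2(TPM + 1), with a pseudocount of 1 TPM. A gene was detected at 1 TPM or more in all 3 libraries, and varied when its highest TPM + 1 was at least 4 times its lowest among protein-coding genes with a mean of 5 TPM or more. With 1 group and no comparison no test was made, so no p-value is given. The counting error is the SD of log2 counts from Poisson sampling alone. The variation step was tested on simulated data with Poisson counting error only. That simulation lacks the wider spread between these libraries, so it checks the working of the rule alone. Python 3.11.15, pandas 2.3.3, NumPy 2.4.6 and matplotlib 3.10.9 were used.

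The members and the 49 gene lists were chosen with earlier results of these data known. Genes named are the markers Fabp3, Adh1, Krt8, Krt18, Gata3 and Nanog and a set of lineage markers, the 25 most abundant genes, up to 4 of the highest members of each list, regulators below 1 TPM, the 12 varying genes with the largest ratio at 20 TPM or more, the 8 most stable at 100 TPM or more, and varying members of the 5 lists with the largest share. Every other gene named was chosen after its values were seen. A few genes that the rule takes are not reported here. Promoters came from RefSeq (GRCm38.p6), and 74 of the 100 most abundant nuclear protein-coding genes had an entry. Alternatives were leaving out each library, other thresholds and pseudocounts, counts in place of TPM, rescaling without mitochondrial genes, and median-of-ratios scaling.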

Additional observations from a re-analysis of the deposited data

How the results depend on the processing

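No paired analysis was possible because 1 group was described and no comparison between groups was made. The number of varying genes, 274 of 5359 (5.11%), was the most dependent on the settings, several of which also changed the number of genes tested. Leaving out 1 library gave 54 of 5092 (1.06%) without replicate 1, 166 of 5519 (3.01%) without replicate 2 and 174 of 5456 (3.19%) without replicate 3. A pseudocount of 5 TPM gave 78, no filter on the mean 676, a mean of at least 20 TPM 74, expected counts on the CPM scale 588, and a ratio of 2 gave 1642. Median-of-ratios factors on TPM gave 251 of 5345 (4.70%). Leaving out chromosomes 1, 16, X and Y, an alternative chosen after seeing the data, gave 195 of 4658 (4.19%). The 7778 detected genes became 4853 at 5 TPM, 8951 at 0.5 TPM and 9295 at 10 expected counts, and 8255 to 8396 with 1 library left out. As a share of expected counts, protein-coding genes held 96.3% in place of 92.3% and the 100 most abundant genes 33.5% in place of 42.6%. Without mitochondrial genes those 100 held 41.0%. The ratio of respiratory to glycolytic TPM was 44.9 to 56.1 with 1 library left out. Leaving out a library moved the mean summed TPM by over 1.5 times for 4 of 49 lists. Without replicate 1, iron handling went from 12848 to 8237, X inactivation from 34.2 to 10.4 and the markers of other cells from 57.8 to 32.1, and without replicate 3 the Y-linked genes went from 72.0 to 40.5. Rescaling TPM over nuclear protein-coding genes multiplied list sums by a median factor of 1.15. Of the varying genes, 61 had fewer than 30 counts in their lowest library, so their ratios are imprecise. With 3 libraries, an SD is itself a rough estimate.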

Other observations

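Non-coding RNA of the wild-type libraries was led by 2 overlapping entries on chromosome 19. Malat1, a long nuclear RNA (5795690 to 5802672, minus strand), was at 1541, 3192 and 7449 TPM in replicates 1, 2 and 3. Gm37376, a transcript of unproven status, lies inside it on the plus strand (5801941 to 5802393) and was at 3643, 8783 and 10898 TPM. Both were lowest in replicate 1 and highest in replicate 3. Reads of the 2 genes cannot be told apart where strand is not known.

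Imprinted genes, which are read from 1 parental copy, were mostly low. Of 22 on the list, 12 were below 1 TPM in every library. Snrpn, a splicing protein, was the highest at 123, 117 and 88.7 TPM. H19, a maternally read non-coding RNA, was at 9.39, 0 and 0 TPM, and Igf2, the growth factor beside it, at 9.35, 2.97 and 3.55. Both were highest in replicate 1.

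Letters common in promoters were counted over the 250 bases before the start. The 91 promoters of the most abundant nuclear protein-coding genes held TATAAA in 4.40%, against 12.4% of all 32851 promoters. They held GGGCGG in 48.4%, against 32.7%. These are descriptions without a test.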
